A study of Mus musculus with 18 samples.

Results

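The core erythroid transcription factors and cofactors were taken as the 10 genes of the deposited nascent RNA table whose symbols are Gata1, Klf1, Tal1, Lmo2, Ldb1, Zfpm1, Gfi1b, Nfe2, Cbfa2t3 and Tcf3, out of 54232 gene identifiers listed. Of these 10 genes, 9 had counts in every library and 1, Zfpm1, was listed at 0 in all 18 libraries. Nascent RNA was labelled in cells sorted from freshly isolated livers of C57BL/6 embryos at e12.5 to e13.5, with no genetic change named in the labels. After a rest of 6 h, every sorted sample received 500 µM 4-thiouridine (4sU), which cells incorporate into new RNA in place of uridine, for 45 min, and the labelled RNA was then purified and sequenced. The 5 erythroid populations were lineage-negative and were told apart by CD71, the transferrin receptor, and Ter119, a surface marker of maturing red cells. S0-Low was labelled as low in CD71 in the sample names and as lacking it in the surface phenotype, and had no Ter119, S0-Medium had medium CD71 and no Ter119, S1 had high CD71 and no Ter119, S2 had high CD71 with medium Ter119, and S3 was high for both. In the study's scheme the sort runs from progenitors in S0-Low to cells in terminal maturation in S2 and S3, with colony-forming stages between them. Lin+ cells carried markers of other blood lineages. Each population had 3 replicates, and no source used here says whether these came from separate litters, so p-values measure the spread between these samples only.

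GATA1 binds GATA sequences and activates most red cell genes, and its partner FOG1, encoded by Zfpm1, binds GATA1 rather than DNA. TAL1 pairs with the E protein encoded by Tcf3 to bind E-boxes, and the small adaptors LMO2 and LDB1 join this pair to GATA1 in 1 complex, with LDB1 able to bind itself and so to bridge distant sites. The corepressor ETO2, encoded by Cbfa2t3, sits in the same complex in early cells. KLF1 binds CACC-type sequences at globin and membrane genes, GFI1B is a repressor that recruits the demethylase LSD1, and NFE2 pairs with small MAF proteins at globin control regions.

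The windows upstream of the RefSeq starts (build GRCm38.p6) show the sequences these proteins are known to bind. RefSeq windows matched 8 of the 10 members, with 12 windows in all. Lmo2 and Nfe2 did not match. The 250 bases before a start were searched on both strands. The GATA motif was AGATAA, with T allowed in place of its first letter and G in place of its last. The CACC-type motif was CCNCNCCC. The E-box was CANNTG. A composite motif was CTG followed, after 7 or 8 bases of any kind, by the letters GATA, and it can overlap the GATA motif. A window is shown for each of 4 members whose nascent RNA was higher in S3 and for the 2 whose was not. The window of Tcf3, also higher in S3, is not shown and holds 0 GATA motifs and 6 CACC-type motifs. In the windows below, GATA and CACC-type motifs are in capitals.
Gata1, chrX:7967911-7968160, minus strand: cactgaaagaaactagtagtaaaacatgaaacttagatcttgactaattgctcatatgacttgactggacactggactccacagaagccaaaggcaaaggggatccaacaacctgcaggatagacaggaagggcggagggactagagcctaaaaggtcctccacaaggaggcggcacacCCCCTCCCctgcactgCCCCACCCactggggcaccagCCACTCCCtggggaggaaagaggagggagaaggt
Klf1, chr8:84901732-84901981, plus strand: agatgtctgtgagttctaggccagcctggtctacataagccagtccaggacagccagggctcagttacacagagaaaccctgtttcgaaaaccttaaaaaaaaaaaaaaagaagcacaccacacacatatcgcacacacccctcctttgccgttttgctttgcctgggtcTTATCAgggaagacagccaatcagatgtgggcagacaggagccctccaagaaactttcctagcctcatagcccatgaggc
Tal1, chr4:115056176-115056425, plus strand: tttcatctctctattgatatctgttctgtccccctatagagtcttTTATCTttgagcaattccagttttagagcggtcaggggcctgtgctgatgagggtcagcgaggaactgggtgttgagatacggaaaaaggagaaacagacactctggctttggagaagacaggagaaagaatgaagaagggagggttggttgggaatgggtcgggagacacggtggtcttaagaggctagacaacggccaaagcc
Gfi1b, chr2:28621983-28622232, minus strand: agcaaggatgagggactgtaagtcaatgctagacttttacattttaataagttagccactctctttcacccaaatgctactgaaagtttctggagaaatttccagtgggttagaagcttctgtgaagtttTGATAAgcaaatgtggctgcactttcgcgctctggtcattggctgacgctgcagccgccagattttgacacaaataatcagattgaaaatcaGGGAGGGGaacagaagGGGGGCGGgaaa
Cbfa2t3, chr8:122699110-122699359, minus strand: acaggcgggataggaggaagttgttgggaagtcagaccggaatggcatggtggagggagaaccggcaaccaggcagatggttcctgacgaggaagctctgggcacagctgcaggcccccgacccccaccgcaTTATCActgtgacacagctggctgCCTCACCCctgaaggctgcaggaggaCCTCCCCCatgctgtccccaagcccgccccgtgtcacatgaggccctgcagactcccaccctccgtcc
Ldb1, chr19:46037071-46037320, minus strand: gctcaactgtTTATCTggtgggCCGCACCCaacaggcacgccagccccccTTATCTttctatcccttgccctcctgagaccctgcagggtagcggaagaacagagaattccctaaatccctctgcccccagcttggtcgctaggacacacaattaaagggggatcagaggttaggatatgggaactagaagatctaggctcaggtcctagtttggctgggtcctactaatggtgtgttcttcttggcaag

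The Klf1 window holds 1 GATA motif 80 bases before the start, read on the opposite strand, and it overlaps a composite motif. The first of 2 Tal1 windows holds 1 GATA motif and 1 composite motif that do not overlap. Gfi1b and the first of 2 Cbfa2t3 windows hold 1 GATA motif each, and the third of 3 Ldb1 windows holds 2. The Gata1 window, which is that of a start inside the annotated gene, holds 3 CACC-type motifs. The Ldb1 window shown also lies inside its annotated gene, and so does most of the Cbfa2t3 window shown. Among the 12 windows of the members, 5 held a GATA motif, 10 a CACC-type motif, 7 an E-box and 2 a composite motif. Among all 32851 RefSeq windows of this length, 26.5% held a GATA motif, 45.9% a CACC-type motif, 66.2% an E-box and 4.05% a composite motif. The other windows of Tal1, Ldb1 and Cbfa2t3 hold no GATA motif, and for each of these genes the window shown is the one that does. These matches describe letters and not binding.

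Total counts per library ranged from 9452476 in S0-Low replicate 3 to 40567976 in S1 replicate 1. Values are given below as normalized counts, which are counts scaled to a common library size by TMM, a method that sets the scale from the bulk of genes. Between S0-Low and S3 the choice of scale matters. Over all 16555 genes tested in the erythroid libraries, the median log2 difference of S3 from S0-Low was -0.54 with TMM and -1.36 with library totals as the scale. Calls are by the edgeR quasi-likelihood test at an adjusted p under 0.05 with TMM, and results with library totals are given beside the named genes where the call differs. Among the 9 measured members and the 5 erythroid populations, replicate 3 was the highest of its population in 39 of 45 cases. These cases come from the same 15 libraries, and the share over all genes was not computed. In these bulk samples a change in the share of a cell type and a change in RNA made per cell cannot be told apart. The labelled cell types carried their markers in part: the summed level of 5 erythroid markers ranged from 10540 to 19570 normalized counts in S0-Low and from 694000 to 1183000 in S3, but Lin+ cells, although labelled primary erythroblasts, had 6075 to 7764.

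With TMM scaling, most of these genes had more labelled RNA in S3 than in S0-Low, while the bridging factor gene Ldb1 and the corepressor gene Cbfa2t3 did not pass the test. Cbfa2t3 had its lowest levels in S1 and S2. In S3 against S0-Low, 7 of the 9 measured members were higher, namely Klf1, Nfe2, Tal1, Gfi1b, Gata1, Lmo2 and Tcf3, and 0 were lower. Over all genes tested, 13.4% were higher and 22.4% lower. The median log2 fold change was 1.80 over the 9 members and -0.54 over all genes. Scaled by library totals, 3 members were higher (Klf1, Tal1 and Nfe2) and 1 was lower (Ldb1), against 6.98% of all genes higher and 37.6% lower. Relative to the median gene, Klf1 was 3.47 higher on the log2 scale with TMM and 3.39 with library totals, a difference that a change of scale leaves nearly fixed by construction. Groups did not overlap between S3 and S0-Low in 8 of the 9 members, 7 of them higher and 1 lower, against 16.6% higher and 25.9% lower without overlap over all genes. Neutrophil markers moved with this comparison: the summed level of 9 neutrophil markers was 10890 to 25460 normalized counts in S0-Low and 0 to 47.6 in S3, with Elane, Ctsg, S100a8, Ly6g, Ngp and Camp at 0. Mpo alone gave 23660, 13800 and 10430 of the S0-Low sums, while S100a8, S100a9, Ly6g and Ngp had 0 to 26.6 there and Camp was at 0. Other classes had lower sums in S3 too: 6 stem and progenitor markers summed to 23210 to 40280 in S0-Low and 51.5 to 117 in S3 (Hlf at 0). For 7 megakaryocyte markers the sums overlapped, at 3557 to 5583 in S0-Low (Gp6 at 0) and 1775 to 3692 in S3 (Ppbp and Treml1 at 0). The 7 macrophage markers summed to 1064 to 1708 in S0-Low, with C1qa and C1qc at 0, and 1.84 to 137 in S3, with Csf1r, C1qa, C1qb, C1qc and Cd5l at 0. The 6 mast cell and basophil markers summed to 688 to 1035 in S0-Low, with Fcer1a, Prss34 and Tpsb2 at 0, and all were at 0 in S3. Lymphoid sums were 360.6 to 777.8 and 0 to 37.5, and hepatocyte sums 185.1 to 289.5 and 0. The part of these cells in the members' changes was not tested.

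**Figure D1:**
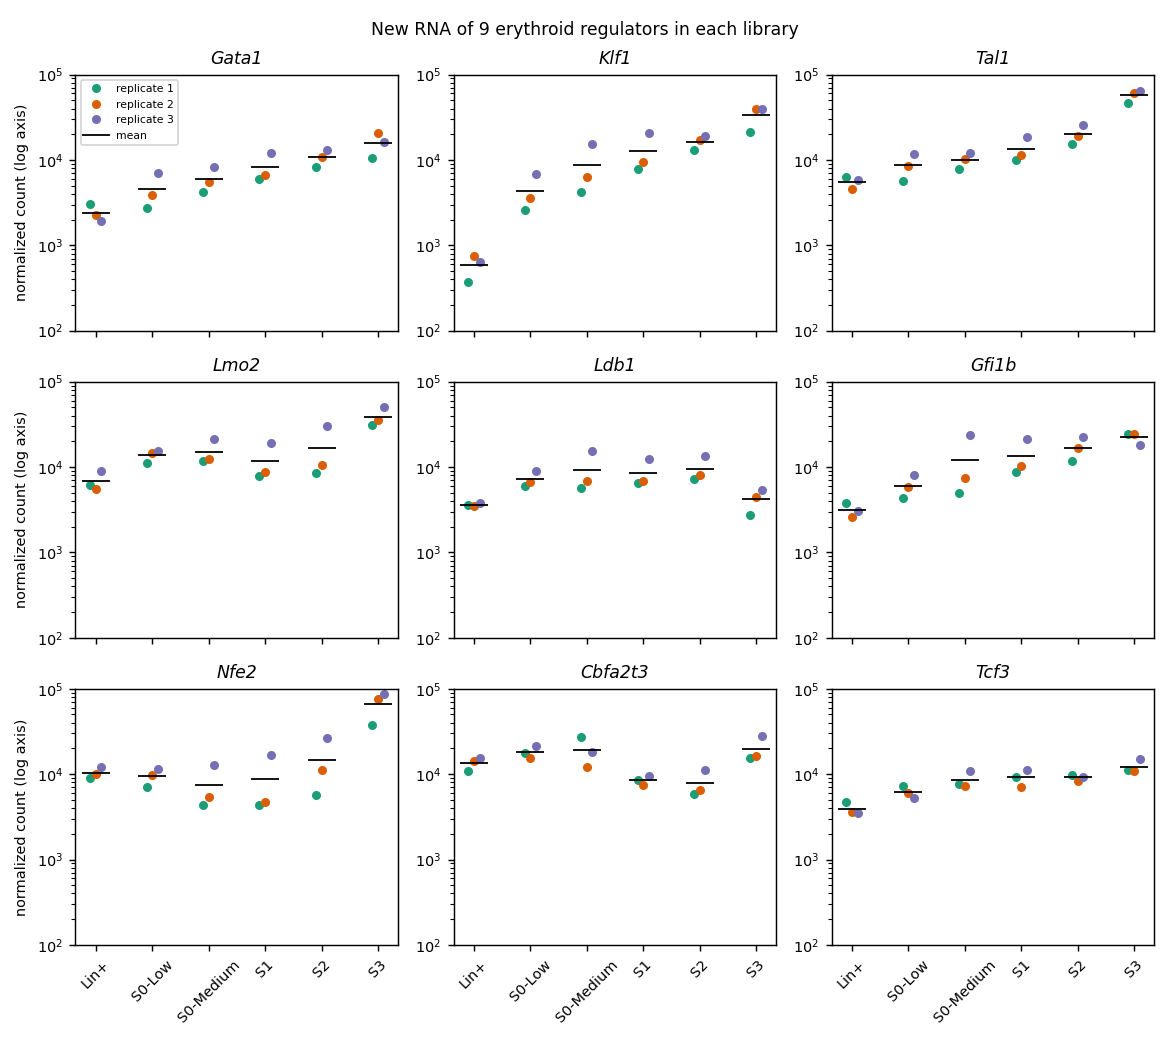
Normalized counts on a log axis for the 9 measured members, 1 panel each, in the 3 libraries of Lin+ and of each erythroid population, with a dash at each mean. Klf1 climbs from Lin+ (mean 584.2) to S3 (mean 33330), Nfe2 and Tal1 step up between S2 and S3, Ldb1 drops at S3, and Cbfa2t3 dips in S1 and S2.

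Klf1 (chr8:84901982-84905291) encodes the factor of the CACC-type sites. In S0-Low it had 2595, 3617 and 6912 normalized counts in replicates 1, 2 and 3, and in S0-Medium 4176, 6333 and 15380. In S1 it had 7742, 9461 and 20790, in S2 13010, 17030 and 19150, and in S3 21470, 39440 and 39070. Each S3 library stood above every library of the other populations, while neighbouring populations from S0-Low to S2 overlapped. Between S0-Low and S3 Klf1 rose 7.62-fold (log2 fold change 2.93, SE 0.54, adjusted p = 0.000782), and its call held with each replicate left out and with library totals.

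Gata1 (chrX:7959260-7976663) rose more evenly, and each population overlapped the next. Its normalized counts were 2724, 3885 and 6994 in S0-Low, 8257, 10950 and 13230 in S2 and 10530, 20530 and 16180 in S3. The mean was 4535 ± 2210 (SD, n = 3) in S0-Low and 15750 ± 5010 (SD, n = 3) in S3. The log2 fold change was 1.80 (SE 0.41, adjusted p = 0.00392), and with library totals it was 0.91 (adjusted p = 0.0943). No single step between neighbouring populations passed the test.

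Tal1 (chr4:115056426-115071755) had most of its rise in the last step. It had 5649, 8490 and 11690 normalized counts in S0-Low, 9876, 11520 and 18370 in S1, 15540, 18840 and 25940 in S2 and 46470, 60210 and 64060 in S3. The lowest S3 library stood well above the highest S2 library. Between S0-Low and S3 Tal1 rose 6.60-fold (log2 fold change 2.72, SE 0.36, adjusted p = 6.12e-05) and rose by 1.51 on the log2 scale from S2 to S3 (SE 0.34, adjusted p = 0.0136). The rise from S2 lost its call with library totals (1.00, adjusted p = 0.065), with only the 6 libraries compared (adjusted p = 0.109) and without S2 replicate 1 (adjusted p = 0.0713) or S2 replicate 2 (adjusted p = 0.0613). Its partner Tcf3 (chr10:80409541-80433976), the E protein gene, changed least among the 7: it had 7232, 6072 and 5254 normalized counts in S0-Low and 11070, 10890 and 14850 in S3. The groups did not overlap, the log2 fold change was 0.99 (SE 0.28, adjusted p = 0.0128), and the call was lost with library totals (0.14, adjusted p = 0.688) and without S0-Low replicate 2 (adjusted p = 0.0579), S0-Low replicate 3 (adjusted p = 0.0534) or S3 replicate 3 (adjusted p = 0.0563). It was also lost with no filter on low counts (0.92, adjusted p = 0.0577) and with only the 6 libraries compared (0.81, adjusted p = 0.0746).

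The adaptors of the complex parted at S3. Lmo2 (chr2:103957903-103981878) had 11140, 14470 and 15530 normalized counts in S0-Low, 8566, 10490 and 30610 in S2 and 30800, 35530 and 50650 in S3. S2 replicate 3 stood almost at the lowest S3 value, with the other S2 libraries far below it. Lmo2 was higher in S3 than in S0-Low (log2 fold change 1.51, SE 0.47, adjusted p = 0.0229), a call lost without S0-Low replicate 1 (adjusted p = 0.0913), S0-Low replicate 2 (adjusted p = 0.0662) or S3 replicate 3 (adjusted p = 0.0803), with library totals (0.62, adjusted p = 0.272) and where every library had to hold at least 10 counts (1.24, adjusted p = 0.0502). Ldb1 (chr19:46031525-46048145) had 6058, 6757 and 8877 normalized counts in S0-Low, 7218, 8143 and 13350 in S2 and 2737, 4471 and 5427 in S3. Each S3 library was below each library of S0-Low and of S2. By the test across all genes Ldb1 did not pass in S3 against S0-Low (log2 fold change -0.78, SE 0.41, adjusted p = 0.147), while it was lower with library totals (-1.67, adjusted p = 0.00611). Relative to the median gene, Ldb1 differed by -0.24 with TMM and -0.31 with library totals, so it was close to the typical gene there. In S3 against S2 these relative values were -0.87 and -0.88.

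Nfe2 (chr15:103248212-103258403) was the steepest riser after S2. It had 7112, 9810 and 11370 normalized counts in S0-Low, 4376, 4698 and 16940 in S1, 5750, 11110 and 26680 in S2 and 37740, 75580 and 87500 in S3. Replicates of S1 and S2 spread widely, with replicate 3 the highest in each, and S3 stood above all of them. Between S0-Low and S3 the log2 fold change was 2.83 (SE 0.65, adjusted p = 0.00372). Gfi1b (chr2:28609450-28621982) had 4285, 5840 and 8091 normalized counts in S0-Low, 4922, 7455 and 23560 in S0-Medium, 11780, 16690 and 22290 in S2 and 24550, 24120 and 18320 in S3. S0-Medium replicate 3 already lay in the S3 range. Its log2 fold change between S0-Low and S3 was 1.88 (SE 0.52, adjusted p = 0.0113), which became 1.61 (adjusted p = 0.0571) without S0-Low replicate 1 and 1.03 (adjusted p = 0.125) with library totals.

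Cbfa2t3 (chr8:122625136-122699332) had its lowest levels midway. It had 17640, 15570 and 21160 normalized counts in S0-Low and 26940, 12110 and 18400 in S0-Medium. It then had 8621, 7546 and 9586 in S1 and 5812, 6574 and 11290 in S2, and 15580, 16110 and 27900 in S3. Every S1 and S2 library lay below every library of S0-Low, S0-Medium and S3, and S3 overlapped S0-Low. The difference between S3 and S0-Low was 0.13 on the log2 scale (SE 0.35, adjusted p = 0.792), and with library totals it was -0.75 (adjusted p = 0.0667), with means of 21080 in S0-Low and 12510 in S3 on that scale. The drop from S0-Low to S1 was -1.08 on the log2 scale (adjusted p = 0.12) and passed with the replicate block (adjusted p = 0.0292), DESeq2 (adjusted p = 0.0253), library totals (adjusted p = 0.0418) and only the 6 libraries compared (adjusted p = 0.0447).

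Zfpm1 (chr8:122281856-122337862) was listed at 0 counts in all 18 libraries, so the FOG1 gene has no measurement here. In the mm9 annotation used for gene overlaps, Zfpm1 lies wholly inside Gm20388, a gene model of 4.43 Mb on the same strand, and within that model 36 of 36 protein-coding genes on the strand of Zfpm1 were at 0 in all 18 libraries. These include Rpl13, a ribosomal protein gene, and Cox4i1, a subunit of cytochrome oxidase, both of which cells use generally. On the opposite strand within the same span, 1 of 34 protein-coding genes was at 0 (2.94%), and Cbfa2t3 is among those with counts. Over all protein-coding genes, 15.4% were at 0. Gm20388 itself was listed with 2443 to 11871 counts per library. No value or fold is therefore given for Zfpm1.

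**Figure D2:**
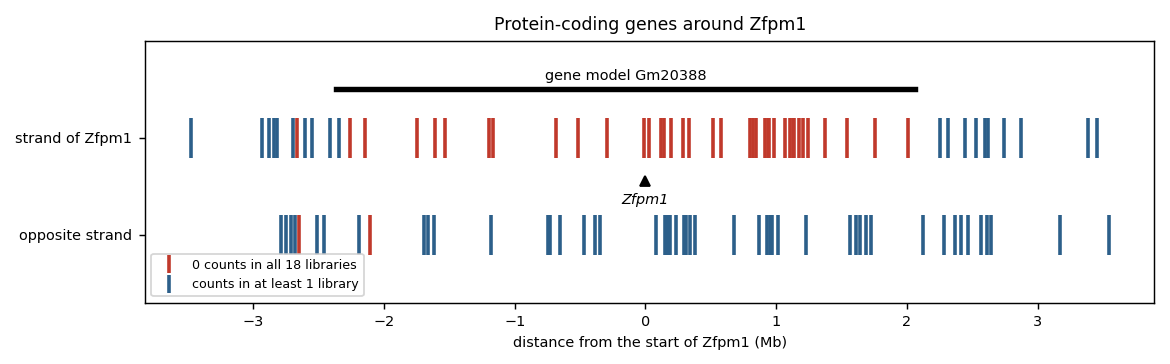
Protein-coding genes around Zfpm1 by strand, each drawn as a tick at its midpoint and placed by distance in Mb from the start of Zfpm1, with the span of Gm20388 as a bar. Of the genes wholly within the bar, all 36 on the strand of Zfpm1 are red (0 counts in all 18 libraries), while 33 of 34 on the opposite strand are blue (counts in at least 1 library).

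The order of events among the members was examined step by step. A test of any difference among the 5 erythroid populations called 6 of 9 members, against 24.6% of all genes: Tal1 (adjusted p = 7.45e-05), Nfe2 (adjusted p = 0.0019), Klf1 (adjusted p = 0.00485), Cbfa2t3 (adjusted p = 0.0154), Gata1 (adjusted p = 0.0206) and Lmo2 (adjusted p = 0.0398). In the first 3 steps, S0-Medium against S0-Low, S1 against S0-Medium and S2 against S1, the edgeR test called 0 members and 0% of all genes in either direction. At an unadjusted p under 0.05 it gave 0, 1 and 0 members, the 1 being Cbfa2t3, lower in S1 than in S0-Medium (log2 fold change -1.16, SE 0.36, adjusted p = 0.33). At that threshold 1.78% of all genes were higher and 1.47% lower in the first step, 1.68% and 5.18% in the second and 1% and 3.03% in the third. DESeq2 called 0 members in these steps too. From S0-Low to S1, spanning 2 steps, 0 members were called, with 0.979% of all genes higher and 1.95% lower. Libraries that share a replicate number deviated together in these comparisons, and with the replicate number as a block 3 members were called: Klf1 was higher in S1 (log2 fold change 1.52, adjusted p = 0.00385), Gata1 was higher (0.88, adjusted p = 0.0384) and Cbfa2t3 was lower (-1.08, adjusted p = 0.0292). That fit called 2.81% of all genes higher and 3.23% lower. Without the block, Cbfa2t3 was also called by DESeq2 (adjusted p = 0.0253) and with library totals (-1.29, adjusted p = 0.0418). Markers of other cells had lower sums in S1 than in S0-Low: the neutrophil list had 20.3 to 49.6 normalized counts in S1 (Ly6g at 0), the stem and progenitor list 5290 to 8487 (none at 0) and the macrophage list 54.5 to 98.5 (C1qa and Cd5l at 0). Their part in these differences was not tested.

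The step from S2 to S3 called 3 members, all higher: Nfe2 (log2 fold change 2.21, SE 0.63, adjusted p = 0.0392), Tal1 and Cbfa2t3 (1.34, SE 0.36, adjusted p = 0.0292). Over all genes, 3.26% were higher and 6.09% lower. Stem and progenitor markers summed to 575.3 to 4024 normalized counts in S2 and 51.5 to 117 in S3, and their part in this step was not tested. The replicate block called 6, adding Klf1 (0.99, adjusted p = 0.0172) and Lmo2 (1.41, adjusted p = 0.00195) as higher and Ldb1 (-1.17, adjusted p = 0.00186) as lower, with 7.3% of all genes higher and 11.3% lower in that fit. Without the block the count of calls was 0 without S2 replicate 1 or without S2 replicate 2, and 1 without S3 replicate 3. Without S2 replicate 1 the log2 fold changes were 1.34 for Tal1, 1.82 for Nfe2 and 1.15 for Cbfa2t3. Without S2 replicate 2 they were 1.45, 2.04 and 1.21. Nfe2 (1.96, adjusted p = 0.111) and Cbfa2t3 (0.99, adjusted p = 0.126) lost their calls without S3 replicate 3. Nfe2 also lost its call without S3 replicate 2 (2.11, adjusted p = 0.0606). With each replicate left out, Tal1 ranged from 1.34 to 1.72, Nfe2 from 1.82 to 2.98 and Cbfa2t3 from 0.99 to 1.67. With library totals Nfe2 (1.71, adjusted p = 0.0702) and Cbfa2t3 (0.82, adjusted p = 0.092) did not pass and 1 member was called, Ldb1 as lower (-1.70, adjusted p = 0.0162), against 1.74% of all genes higher and 13.7% lower. Gata1, Gfi1b and Tcf3 did not pass in this step in either fit. Their log2 fold changes were 0.55, 0.41 and 0.43 with SE 0.40, 0.50 and 0.27.

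**Figure D3:**
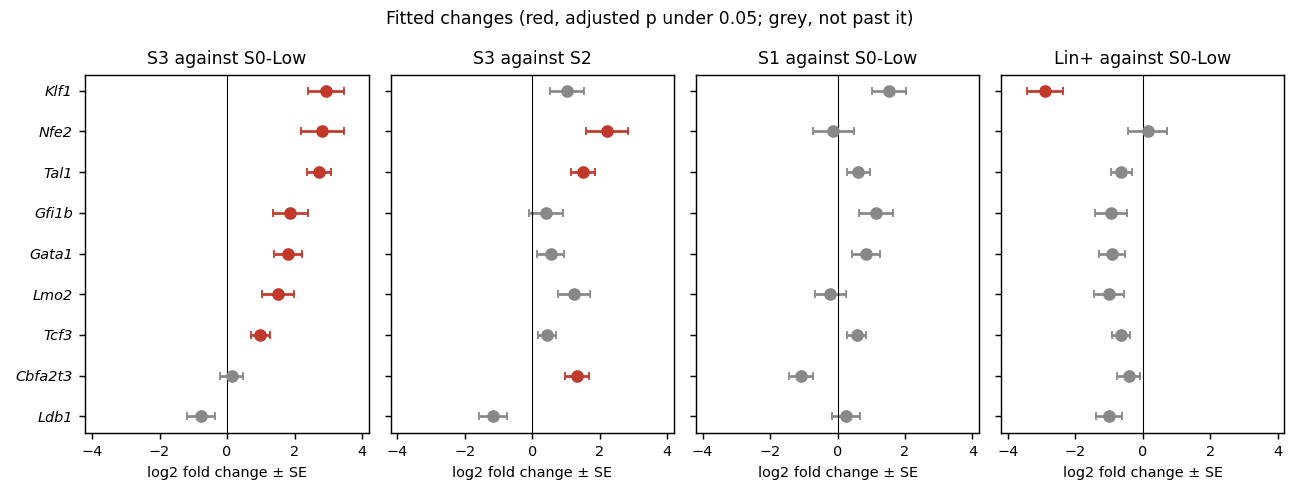
Log2 fold changes with their standard errors for the 9 measured members in 4 comparisons, red where the adjusted p was under 0.05. In S3 against S0-Low 7 members are red and to the right of 0, in S3 against S2 only Nfe2, Tal1 and Cbfa2t3 are, in S1 against S0-Low none is, and in Lin+ against S0-Low only Klf1 is, at -2.90.

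Lin+ cells gave the level of these genes outside the erythroid sort. Against S0-Low only Klf1 differed, with 370.5, 751.9 and 630.1 normalized counts in Lin+ and a log2 fold change of -2.90 (SE 0.52, adjusted p = 0.0112). The share of all genes called was 0.496% higher and 0.22% lower, so 1 of 9 members lower stands beside few calls in all. That call was lost without Lin+ replicate 1 (-2.66, adjusted p = 0.0809), Lin+ replicate 3 (-2.96, adjusted p = 0.0652) or S0-Low replicate 3 (-2.41, adjusted p = 0.056). Without overlap below S0-Low were Klf1, Lmo2, Ldb1, Gfi1b and Tcf3, 5 of 9 members against 6.96% of all genes. Nfe2 was at the S0-Low level in Lin+, with 9019, 10140 and 12120 normalized counts. Tal1 had 6245, 4519 and 5872 in Lin+, and its groups overlapped with S0-Low. The Lin+ libraries held the markers of other lineages, with neutrophil markers summing to 98090 to 186400 and 7 megakaryocyte markers to 12050 to 35710 normalized counts. The part of these cells in the Lin+ levels was not tested. Against S3, 7 of 9 members were lower in Lin+, with 28.2% of all genes higher and 14.1% lower. Klf1 was the furthest apart at -5.83 (SE 0.60, adjusted p = 1.49e-06), while Ldb1 (-0.22, adjusted p = 0.679) and Cbfa2t3 (-0.55, adjusted p = 0.196) did not pass.

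Ratios between partner genes within a library do not depend on how libraries are scaled. Since a count also grows with gene length, a ratio is read here only as it changes between populations. Of 7 ratios compared between S3 and S0-Low, 5 did not overlap between the groups, and each of these had the smallest p that an exact two-sided permutation test of 3 against 3 allows (p = 0.1, adjusted over the 7 ratios 0.14), so no ratio could pass the threshold.

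The log2 ratio of Gata1 to Gata2, the GATA factor of progenitors that GATA1 replaces, rose from -0.82 ± 1.05 (SD, n = 3) in S0-Low to 10.70 ± 3.87 (SD, n = 3) in S3. Gata2 had 8057, 9368 and 5374 normalized counts in S0-Low, 419.7, 540.6 and 271.3 in S1 and 2.422, 227.8 and 0 in S3. S3 replicate 2 alone kept a clear Gata2 count, and its ratio was 6.49. The Gata2 counts of the other S3 libraries were 1 and 0, so the S3 mean is set in part by the 0.5 added to each count, and with 5 added it was 8.91. In S1 the ratios were 3.82, 3.62 and 5.46, above every S0-Low and S0-Medium library.

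The log2 ratio of Klf1 to Gata1 was tight in S0-Low, at -0.07, -0.10 and -0.02, and rose to 1.03, 0.94 and 1.27 in S3. In Lin+ it was -3.04, -1.57 and -1.62, below every erythroid library. The log2 ratio of Tal1 to the corepressor gene Cbfa2t3 was -1.64, -0.87 and -0.86 in S0-Low, 0.20, 0.61 and 0.94 in S1, 1.42, 1.52 and 1.20 in S2 and 1.58, 1.90 and 1.20 in S3. It shifted while Cbfa2t3 was low and was still up in S3, where both Tal1 and Cbfa2t3 were higher than in S2. The log2 ratio of Lmo2 to Ldb1 was 0.88, 1.10 and 0.81 in S0-Low and 0.25, 0.36 and 1.20 in S2, and then 3.49, 2.99 and 3.22 in S3. No library of any other population came above 1.25.

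**Figure D4:**
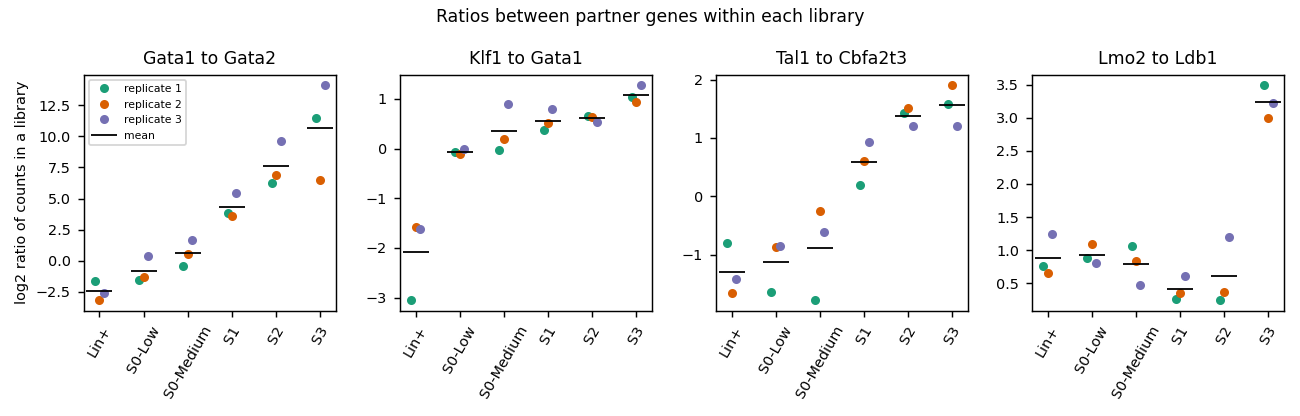
Log2 ratios of raw counts (each plus 0.5) between partner genes within each library, 1 panel per ratio, by population, with a dash at each mean. The mean of Gata1 to Gata2 climbs at every population from S0-Low on, Tal1 to Cbfa2t3 shifts between S0-Medium and S2, and Lmo2 to Ldb1 stays at means of 0.41 to 0.93 until S2 and steps to about 3.23 in S3.

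The log2 ratio of Nfe2 to Bach1, a repressor that competes for the same small MAF partners, was 1.05 ± 0.61 (SD, n = 3) in S0-Low and 2.00 ± 0.29 (SD, n = 3) in S3, and Bach1 itself went from 3138, 3277 and 8718 to 11810, 17670 and 18710 normalized counts. The ratios of Tal1 to its paralogue Lyl1 (1.07 ± 1.12 and 1.81 ± 0.50, SD, n = 3 each) and of Gfi1b to its paralogue Gfi1 (6.74 ± 3.04 and 11.16 ± 3.13, SD, n = 3 each) overlapped between S0-Low and S3. Gfi1 had 0 to 68.0 normalized counts in S3 libraries, so its ratio there rests on few counts and its S3 mean was 9.77 with 5 added to each count.

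Among 34 genes for partners and cofactors of these factors, 9 were higher and 7 lower in S3 than in S0-Low, beside 13.4% of all genes higher and 22.4% lower, so the share of lower genes was near that of all genes. The median log2 fold change was -0.29 beside -0.54 over all genes. The furthest up was Runx1t1, a paralogue of Cbfa2t3 in the ETO family, with 14.9, 84.6 and 0 normalized counts in S0-Low and 21410, 24170 and 32870 in S3. Mafk, the small MAF partner of NFE2, rose from 2161, 3176 and 4168 to 10200, 17950 and 26160 (log2 fold change 2.51, SE 0.43, adjusted p = 0.000419). Lyl1 rose by 2.04 on the log2 scale (SE 0.43, adjusted p = 0.00196), and Bach1 by 1.67 (SE 0.46, adjusted p = 0.0116), a call that Bach1 lost with library totals (0.77, adjusted p = 0.177). The furthest down were Fli1, a megakaryocyte factor, with 10210, 6126 and 9486 normalized counts in S0-Low and 0, 20.2 and 0 in S3, Gata2, and Myb, a progenitor factor (log2 fold change -5.16, SE 0.55, adjusted p = 1.15e-05). With library totals the split was 4 higher (Runx1t1, Mafk, Mafg and Lyl1) and 19 lower, beside 6.98% and 37.6% of all genes. Of the chromatin cofactors on this list, Ep300 (1.45, adjusted p = 0.00267) and its paralogue Crebbp (1.14, adjusted p = 0.00773) were higher and Chd4 (-1.48, adjusted p = 0.0109) was lower. Kdm1a, which encodes LSD1, had -0.22 (SE 0.27, adjusted p = 0.541), and Rcor1, Hdac1, Hdac2, Hdac3, Sin3a, Mta2, Ncor1, Smarca4 and Med1 did not pass either. With library totals Ep300 (0.56, adjusted p = 0.115) and Crebbp (0.29, adjusted p = 0.351) did not pass, Chd4 was still lower, and Kdm1a (-1.10, adjusted p = 0.00497), Rcor1, Hdac2, Hdac3, Mta2, Ncor1, Smarca4 and Med1 were called lower. These cofactors were named after their values were seen.

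Genes that these factors are known to activate moved in 1 direction. Of 18 such genes 17 were tested, since Ahsp did not match an identifier, and all 17 were higher in S3 than in S0-Low, under every alternative fit tried, beside 13.4% of all genes higher. Their median log2 fold change was 5.21 beside -0.54 over all genes. The list includes Tfrc, which encodes CD71, a marker used in the sort. Slc4a1, the band 3 anion exchanger, had 234.7, 686.1 and 488.8 normalized counts in S0-Low and 338400, 492600 and 662700 in S3. Trim10 went from 14.1, 147.6 and 87.7 to 34660, 56780 and 96630, and Alas2, the first enzyme of haem synthesis in red cells, from 128.1, 154.0 and 175.3 to 83120, 114400 and 129800. Of 7 genes known to be repressed as progenitors mature, 6 were lower and 1, Lyl1, was higher, beside 22.4% of all genes lower, and their median was -6.59. Gata2, Myb, Spi1 and Lyl1 are also on the partner list. Hhex, a progenitor homeobox gene, had 3447, 3134 and 3028 normalized counts in S0-Low and 0 in each S3 library, which is at least 562-fold lower against a floor of 3 counts per library. Cd34 was at least 621-fold lower on the same floor. Kit, the stem cell factor receptor, had 13160, 10270 and 23330 normalized counts in S0-Low and 0, 83.6 and 0 in S3, with S3 replicate 2 again the library that kept counts.

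Patterns close to those of the members were found by Pearson correlation of log2 normalized counts over the 18 libraries, among genes with a symbol and a mean of at least 100 normalized counts. The libraries share populations and sequencing, so these values describe likeness only. Closest to Klf1 were Ermap (r = 0.986), Alad (0.972) and Ank1 (0.972), and closest to Tal1 were Tmcc2 (0.985), Tmod1 (0.985) and Ppp1r15a (0.984). Closest to Gata1 were 6030468B19Rik (0.969), Icam4 (0.969) and Alad (0.968). Gfi1b had 1190007F08Rik (0.961), 6030468B19Rik (0.957) and Rhd (0.954), and Nfe2 had Hscb (0.971), Ypel5 (0.965) and Serinc3 (0.964). Lmo2 had Trim58 (0.947), 1110020G09Rik (0.925) and Fam78a (0.918), and Tcf3 had Spire1 (0.956), Slc38a5 (0.944) and Ifrd2 (0.929). For the members that did not rise the coefficients were lower. Ldb1 had Zbtb1 (0.885), Dtx3 (0.881) and Prss50 (0.876), and Cbfa2t3 had Dapk1 (0.811), Smg6 (0.800) and Camta1 (0.792). Over the 15 erythroid libraries alone the 3 nearest genes were not the same 3 for any of the 9 members, with 0 shared for Gata1, Klf1, Cbfa2t3 and Tcf3, 1 for Lmo2, Ldb1, Gfi1b and Nfe2 and 2 for Tal1, and the nearest gene to Gata1 was then Klf1 (r = 0.981).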

How the data were processed

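The 18 libraries hold 4sU-labelled RNA, and groups and replicate numbers came from the submitted labels. The authors quantified reads with kallisto 0.43.0 (build GRCm38 in the submitters' processing notes) and deposited whole-number counts per gene, neither normalized nor pooled. The transcript set and the treatment of introns are not given in the sources used here. Kallisto divides reads among transcripts that share sequence. Libraries were made with PCR and no molecular identifiers, so floors cover counting error only.

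Counts were tested in R 4.3.3 with edgeR 4.0.16 (TMM, filterByExpr, quasi-likelihood test, two-sided, Benjamini-Hochberg adjustment over all genes tested, threshold 0.05). The 15 erythroid libraries formed 1 fit (16555 genes), and all 18 libraries the fit for Lin+ (17755 genes). Total counts ranged from 9452476 to 40567976, where 3 counts are 0.317 and 0.0739 CPM. Log2 ratios within a library used counts plus 0.5 and an exact permutation test. The edgeR fit was first checked on simulated counts with known changes. Simulated libraries were independent and spread less than these data, so the check does not cover the spread or shared replicate deviations seen here. Figures and motif searches used Python 3.11.15, pandas 2.3.3 and matplotlib 3.10.9, and sequences are RefSeq's, GRCm38.p6. Alternatives were DESeq2 1.42.0, RLE factors, library totals, no filter, at least 10 counts in every library, the replicate block, other sets of libraries and each replicate left out.

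Named genes were all members, the 3 largest rises and falls past the threshold in each list in S3 against S0-Low, every gene of a ratio, and the 3 genes most like each member. Chromatin cofactors of the partner list, and Mafg, were named in addition, after their values were seen. The megakaryocyte list leaves out 1 gene that is not reported here. The members and lists were chosen with earlier results of these data known. The main fits held population only and did not pair libraries, and the replicate block was run as an alternative. Same-numbered libraries were described as deviating together where all 3 pairs correlated above 0.1 in their deviations from population means. These correlations were 0.111 to 0.408 in the 4 steps and in S1 against S0-Low, and 0.035 to 0.138 in the comparisons of S3 with S0-Low and of Lin+, where 0.1 was not reached by every pair. Replicates of a population differed by far more than counting noise.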

Additional observations from a re-analysis of the deposited data

How the results depend on the processing

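Of the counts of called genes, that of the 17 activated targets held under every alternative, and the 7 members lower in Lin+ than in S3 held too. Library totals gave 4 members for S3 against S0-Low, 1 for S3 against S2 and 1 for S1 against S0-Low (Cbfa2t3, lower). With no filter on low counts these last 2 were 5 and 1, the 1 being Klf1, higher (1.51, adjusted p = 0.00499). With only the 6 libraries compared they were 0 and 1, and DESeq2 gave 1 for S1 against S0-Low. In both of these fits the 1 was Cbfa2t3, lower. Where every library had to hold at least 10 counts, only 2 repressed targets could be tested and both were called. The replicate block gave 6 members for S3 against S2, 3 for S1 against S0-Low and 3 for Lin+ against S0-Low (Klf1, Lmo2 and Ldb1, lower). In S3 against S0-Low, where the numbers did not pair the samples, it gave 8, with Ldb1 lower (-0.81). It changed no call in the first 3 steps, and all 9 members were called among the 5 populations. The share of all genes called with the block was computed only for S3 against S2 and S1 against S0-Low. The block's counts for Lin+ against S0-Low, S3 against S0-Low and the 5 populations therefore cannot be set beside all genes. Nor was that share computed for DESeq2, the other filters or the smaller sets of libraries.

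With each replicate left out, the count ranged from 5 to 7 for S3 against S0-Low, from 0 to 4 for S3 against S2, from 4 to 7 among the 5 populations, from 0 to 1 for Lin+ against S0-Low, from 12 to 17 for partner genes and from 6 to 7 for repressed targets. A lone pair of libraries then stands for a population, with the spread taken from all.

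Directions that reversed were of small, uncalled differences, and the cause was not tested. With library totals Gfi1b (-0.072) and Tcf3 (-0.091) reversed in S3 against S2, Cbfa2t3 in S3 against S0-Low (-0.75), and Ldb1 (0.61) and Cbfa2t3 (0.30) in Lin+ against S3. Cbfa2t3 in S3 against S0-Low was -0.13 with at least 10 counts in every library, -0.060 with only the 6 libraries and -0.21 to 0.27 with each replicate left out. Ldb1 in Lin+ against S3 was 0.12 with at least 10 counts in every library, 0.028 with only the 6 libraries and -0.45 to 0.015 with each replicate left out. In S1 against S0-Low, Nfe2 was -1.06 to 0.17 and Ldb1 -0.11 to 0.38 with each replicate left out, and Nfe2 in Lin+ against S0-Low was -0.020 to 0.30. A pseudocount of 5 reversed no ratio, but lowered the difference between S3 and S0-Low from 11.52 to 9.73 for Gata1 to Gata2 and from 4.42 to 3.55 for Gfi1b to Gfi1. The lowest count of a measured member in any library was 344 (Klf1 in Lin+ replicate 1). Gata2, Gfi1, Hhex, Cd34 and Kit had few or 0 counts in S3, and depth limits their folds there.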
